A study of Saccharomyces cerevisiae with 15 samples.

Results

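Ribosomal protein (RP) genes of budding yeast, Saccharomyces cerevisiae, are switched on in growing cells by a small set of promoter-bound factors and switched off when the TOR kinases are inhibited. The values below are those of the regions in front of the genes that encode these regulators, in chromatin precipitated with Ifh1 or Fhl1. The regulators were 10 genes: FHL1, IFH1, CRF1, SFP1, RAP1, HMO1, ESA1, SCH9, TOR1 and TOR2. A probe was taken as a member where the 5′ end of one of these genes faced the probed region, which gave 11 of the 6803 probes of the array, 1 for each gene and 2 for SFP1. That rule for probes used no measured value, but the genes themselves were chosen with earlier results of these data known.

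In outline, RP promoters recruit the general regulatory factor Rap1 and the high-mobility-group protein Hmo1, and with them the forkhead-like factor Fhl1, whose forkhead-associated domain holds the coactivator Ifh1. Crf1 has been described as a corepressor that competes with Ifh1 for that domain when TOR complex 1 is inhibited. Whether it does so in the strains used here was not tested. Sfp1 is a zinc-finger activator of RP and ribosome biogenesis genes that leaves the nucleus when TOR complex 1 is inhibited. Esa1 is the catalytic subunit of the histone acetyltransferase NuA4, Sch9 is a kinase phosphorylated by TOR complex 1, and Tor1 and Tor2 are the TOR kinases themselves. The question put to the arrays was whether Fhl1 or Ifh1 also occupies the promoters of these regulators, including their own.

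The measurements came from 15 two-colour arrays of intergenic regions (ChIP-chip). There were 3 arrays of Ifh1 with rapamycin, 4 of Ifh1 untreated, 5 of Fhl1 with rapamycin and 3 of Fhl1 untreated. The Ifh1 strain was W303 with IFH1-13myc-TRP1MX6, the Fhl1 strain was W303 with FHL1-13myc-HIS3MX6, and untagged W303 gave the other channel of each array. Such cassettes are inserted behind the 3′ end of a gene and leave its promoter in place, and each factor was tagged in 1 strain. Per the labels' protocols, cultures grew to log phase in YPD at 30 °C, rapamycin (an inhibitor of TOR complex 1) was given at 200 ng/mL, and cross-linking took 30 min. The sources used here do not say whether the untagged cells on the rapamycin arrays also received the drug. The labels call the replicates biological.

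Every value below is a log2 ratio after subtraction of the array's median, so 0 is the typical region. The direction of the deposited ratios is unknown, since dye-swapped arrays are mentioned but not named. Each array was therefore turned so that the median of its large-subunit RP promoters is positive, and "above 0" means on the side of the RP promoters. The size of the median of all 131 RP promoters averaged 0.04 ± 0.04 on Ifh1 rapamycin arrays (SD, n = 3), 0.88 ± 0.05 on Ifh1 untreated arrays (n = 4), 1.10 ± 0.32 on Fhl1 rapamycin arrays (n = 5) and 1.21 ± 0.41 on Fhl1 untreated arrays (n = 3). The 3 Ifh1 rapamycin arrays stand apart in this: their RP sizes were only 0.01, 0.03 and 0.09, so their side is not settled. Their values are printed as turned by that small shift, and ranges over all 8 sign patterns of the 3 arrays are given for the member means, the list medians and the Ifh1 differences described below. Over all probes, the 22 pairs of arrays within a group correlated at r between -0.18 and 0.15 as deposited, and no 2 arrays held identical values.

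Of the 11 regions, 6 lie in front of a single gene. These are FHL1 (iYPR104C, the array's name for the region on the higher-coordinate side of that reading frame), CRF1 (iYDR222W), RAP1 (iYNL217W), SCH9 (iYHR204W), TOR2 (iYKL203C) and the region abutting SFP1 (iYLR402W). The other 5 are shared with a gene that points the other way. IFH1 shares iYLR223C with UCC1, which encodes an F-box protein, and HMO1 shares iYDR173C with ARG82, an inositol polyphosphate kinase. ESA1 shares iYOR243C with PUS7, a pseudouridine synthase, and TOR1 shares iYJR065C with ARP3, a subunit of the actin-nucleating Arp2/3 complex. The second SFP1 probe, iYLR401C, lies in the same gap farther from SFP1 and also faces DUS3, a dihydrouridine synthase. No coordinates are given, because the labels and the table name no genome build for the array.

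No regulator promoter was called enriched or depleted in any of the 4 groups (limma, Benjamini-Hochberg adjusted over all 6803 probes, two-sided, threshold 0.05). In Ifh1 rapamycin 0 of 11 passed, against 0% of all probes, in Ifh1 untreated 0 of 11 against 0.353%, in Fhl1 rapamycin 0 of 11 against 0.97%, and in Fhl1 untreated 0 of 11 against 0.661%. At an unadjusted p under 0.05 the count was also 0 of 11 in each group, where 5.26%, 7.36%, 7.03% and 5.2% of all probes fell, in the same order of groups. With 11 regions and shares of that size, a count of 0 is near the background and shows nothing particular to the regulators. The lowest adjusted p among the members (limma) was 0.934 for Ifh1 rapamycin, 0.693 for Ifh1 untreated, 0.751 for Fhl1 rapamycin and 0.999 for Fhl1 untreated.

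**Figure D1:**
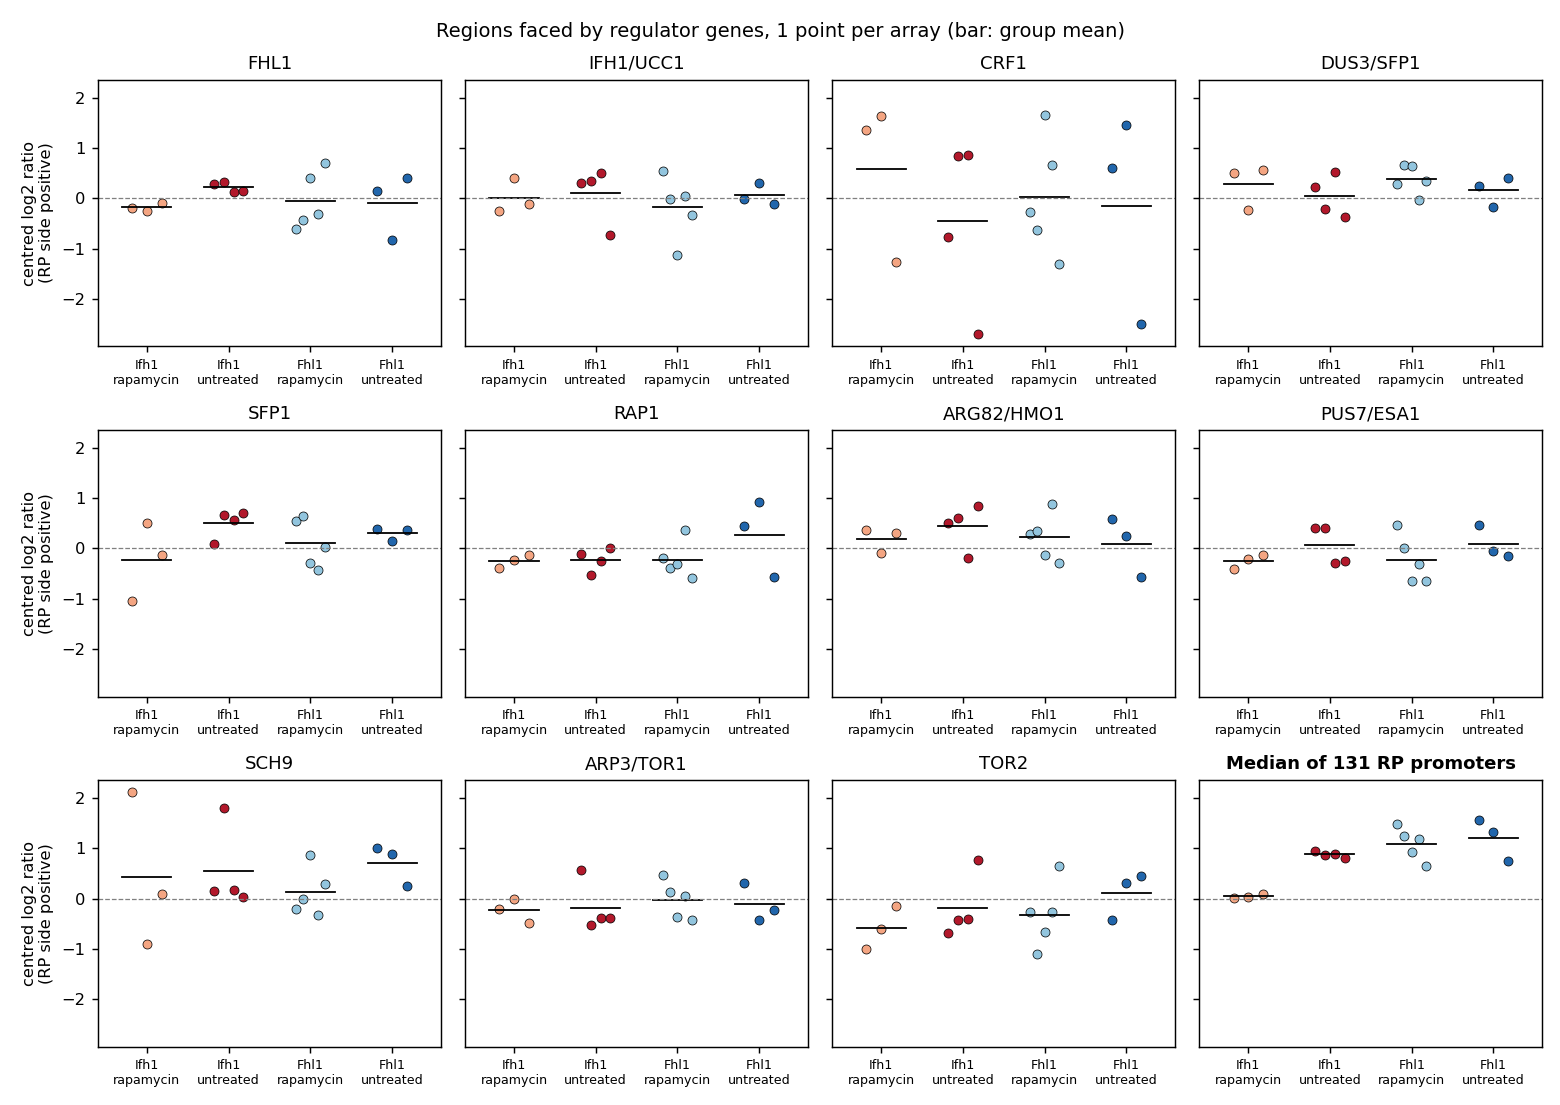
Centred log2 ratio (vertical axis, RP side positive) of each of the 11 regulator regions, 1 point per array and a bar for each group's mean, with the median of the 131 RP promoters in the last panel. The RP median is high on every array of Ifh1 untreated, Fhl1 rapamycin and Fhl1 untreated, while the regulator regions scatter around 0, and CRF1 spreads from -2.70 to 1.65.

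The median of the 11 regions was -0.18 on Ifh1 rapamycin (-0.18 to 0.18 over the sign patterns), 0.06 on Ifh1 untreated, -0.03 on Fhl1 rapamycin and 0.09 on Fhl1 untreated arrays, where the median of all probes was between -0.02 and 0.01. RP promoters had medians of 0.03, 0.90, 1.09 and 1.24 in these groups. The member median exceeded 62.3% of the regions named by a reading frame on Ifh1 untreated, 47.0% on Fhl1 rapamycin and 62.5% on Fhl1 untreated arrays, and 29.2% as turned on Ifh1 rapamycin arrays. On Ifh1 rapamycin arrays 5 of the 11 regions averaged above 0 (3 to 8 over the sign patterns), against 7 on Ifh1 untreated, 5 on Fhl1 rapamycin and 8 on Fhl1 untreated arrays.

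Since turning all 3 arrays only changes the sign, each Ifh1 rapamycin mean is bounded by a size. Over the sign patterns the mean stayed within -0.18 and 0.18 at FHL1, -0.26 and 0.26 at IFH1/UCC1, -1.42 and 1.42 at CRF1, -0.43 and 0.43 at DUS3/SFP1, and -0.56 and 0.56 at SFP1. It stayed within -0.25 and 0.25 at RAP1, ARG82/HMO1 and PUS7/ESA1, -1.04 and 1.04 at SCH9, -0.23 and 0.23 at ARP3/TOR1, and -0.58 and 0.58 at TOR2. No sign can be given to any of the 11 means, and FHL1 had the narrowest range.

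The distance to the RP promoters can be read from the intervals. Each region's 95% interval (limma) lay entirely below the mean RP level for 7 of 11 regions on Ifh1 untreated, 10 of 11 on Fhl1 rapamycin and 9 of 11 on Fhl1 untreated arrays. The exceptions were CRF1, SFP1 (the abutting region), ARG82/HMO1 and SCH9 on Ifh1 untreated, CRF1 on Fhl1 rapamycin, and CRF1 and SCH9 on Fhl1 untreated arrays. Of the 131 RP promoters, 95 averaged above the highest regulator region on Ifh1 untreated, 108 on Fhl1 rapamycin and 90 on Fhl1 untreated arrays. The highest upper bounds of any member were 1.36, 1.28 and 1.66 in these groups, so enrichment of the size of an average RP promoter is not outside the interval for the excepted regions.

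**Figure D2:**
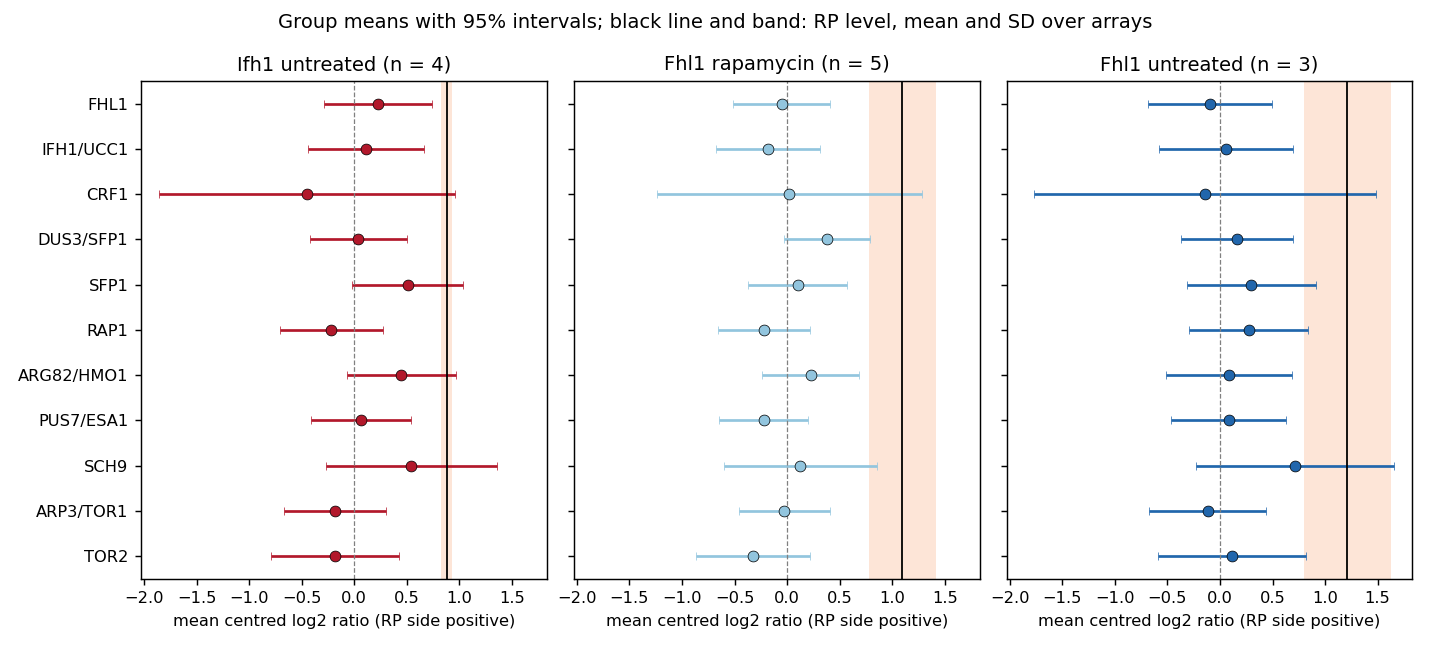
Group means of the 11 regulator regions (points) with 95% intervals from limma (bars) on Ifh1 untreated, Fhl1 rapamycin and Fhl1 untreated arrays, on the centred log2 scale. The black line and band give the mean and SD of the RP level over arrays (0.88 ± 0.05, 1.10 ± 0.32 and 1.21 ± 0.41), and most intervals end to its left.

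FHL1 and IFH1, the genes of the precipitated factors, come first. At the FHL1 region the log2 ratios were -0.20, -0.25 and -0.08 on Ifh1 rapamycin arrays and 0.29, 0.33, 0.13 and 0.16 on Ifh1 untreated arrays. On Fhl1 rapamycin arrays FHL1 had -0.61, -0.43, 0.40, -0.32 and 0.71, and on Fhl1 untreated arrays 0.14, -0.83 and 0.41. The 4 Ifh1 untreated arrays were all slightly above 0. The 3 Ifh1 rapamycin arrays lay below 0 and apart from them as turned, but as deposited 2 of the 3 lay above 0, while Fhl1 arrays fell on both sides of 0 with and without drug. The means were -0.18 (95% interval -0.77 to 0.42) for Ifh1 rapamycin, 0.22 (-0.29 to 0.74) for Ifh1 untreated, -0.05 (-0.51 to 0.41) for Fhl1 rapamycin and -0.09 (-0.69 to 0.50) for Fhl1 untreated. Every one of these intervals spans 0, that of Fhl1 on its own promoter included.

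The IFH1/UCC1 region had log2 ratios of -0.25, 0.41 and -0.11 on Ifh1 rapamycin arrays and 0.32, 0.35, 0.51 and -0.72 on Ifh1 untreated arrays. On Fhl1 rapamycin arrays the same region had 0.53, -0.02, -1.13, 0.05 and -0.34, and on Fhl1 untreated arrays -0.02, 0.31 and -0.12. All 4 groups include arrays on both sides of 0, with the Ifh1 rapamycin arrays as turned. A single Ifh1 untreated array lies far below the other 3. Mean levels were 0.02 (95% interval -0.62 to 0.65), 0.11 (-0.44 to 0.67), -0.18 (-0.67 to 0.31) and 0.06 (-0.58 to 0.70) for Ifh1 rapamycin, Ifh1 untreated, Fhl1 rapamycin and Fhl1 untreated.

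The regions behind these 2 genes, next to the tagged ends, were read in the same way. On the 3′ side of FHL1 (iYPR103W) the mean was 0.05 ± 0.09 for Ifh1 rapamycin (-0.09 to 0.09 over the sign patterns), -0.01 ± 0.50 for Ifh1 untreated, 0.34 ± 0.89 for Fhl1 rapamycin and 0.35 ± 0.91 for Fhl1 untreated (SD over arrays). On the 3′ side of IFH1 (iYLR222C, which faces UTP13, a gene of small-subunit rRNA processing) the means were -0.24 ± 0.91 for Ifh1 rapamycin (-0.61 to 0.61), -0.35 ± 2.29 for Ifh1 untreated, -0.37 ± 0.82 for Fhl1 rapamycin and 0.27 ± 0.41 for Fhl1 untreated. None of these was called (lowest adjusted p 0.893, limma). A single Ifh1 untreated array, replicate 4, read -3.71 behind IFH1, and the other 3 read 0.40 to 1.43.

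CRF1 encodes the corepressor of the circuit, and its region was the most variable member. Log2 ratios were 1.37, 1.63 and -1.27 on Ifh1 rapamycin arrays and -0.78, 0.84, 0.85 and -2.70 on Ifh1 untreated arrays. They were -0.27, -0.64, 1.65, 0.67 and -1.30 on Fhl1 rapamycin arrays and 0.61, 1.46 and -2.49 on Fhl1 untreated arrays. Each group holds arrays far above and far below 0, with the Ifh1 rapamycin arrays as turned. The within-group SD of 1.59 at CRF1, pooled over every group, was higher than that of 98.7% of regions named by a reading frame. Those 5811 regions had a median SD of 0.61. The SD and its rank include the Ifh1 rapamycin arrays as turned. The means were 0.58 (95% interval -1.05 to 2.20) for Ifh1 rapamycin, -0.45 (-1.85 to 0.96) for Ifh1 untreated, 0.02 (-1.24 to 1.28) for Fhl1 rapamycin and -0.14 (-1.77 to 1.48) for Fhl1 untreated, the widest intervals among the members in each group.

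That spread at CRF1 went with the level of the whole array. Before centring, array medians of the deposited log2 ratios ran from -1.31 to 1.74, with a gap between 0.23 and 1.11. The deposited CRF1 value did not follow them: its SD over 15 arrays was 0.64 before centring and 1.45 after it, while the other 10 members had a lower SD after centring than before. With the sign as deposited, the centred CRF1 value lay on the opposite side of 0 to the array's median on 14 of 15 arrays. The centred value is the deposited value minus that median. A region whose deposited value does not follow the median thus lies opposite to it by construction. The permutation p-values below do not allow for this. All 5 arrays with medians above the gap had a centred CRF1 value below 0. Within the other 10 arrays, Pearson's r between the 2 quantities was -0.76 (permutation p = 0.0085, 0.0712 after adjustment over 11 regions) and Spearman's rho -0.64 (permutation p = 0.0548, adjusted 0.301), and r was -0.65 without the 2 arrays farthest from their median. The adjusted values miss 0.05, and DUS3/SFP1 had as strong a relation of the opposite sign within these 10 arrays (r = 0.75, permutation p = 0.0129, adjusted 0.0712, and rho = 0.82, permutation p = 0.00561, adjusted 0.0617). No r is given over all 15 arrays, since their medians fall into separate sets. Without centring, the CRF1 means were 0.37 for Ifh1 rapamycin, -0.08 for Ifh1 untreated, -0.01 for Fhl1 rapamycin and -0.05 for Fhl1 untreated, and none was called.

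**Figure D3:**
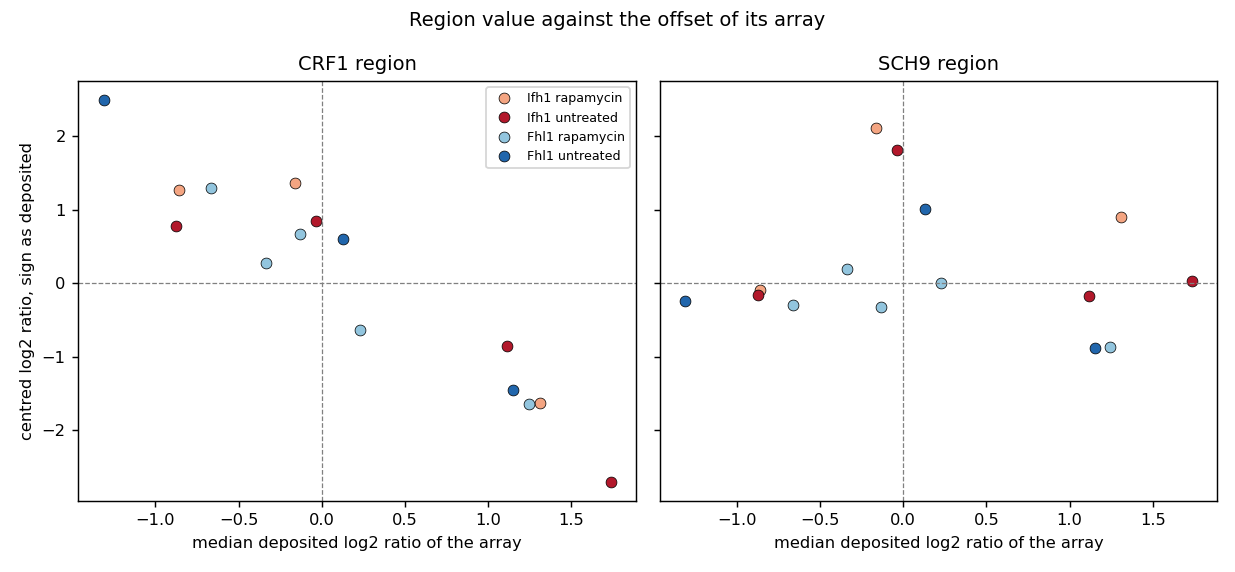
Centred log2 ratio with the sign as deposited (vertical axis) against the array's median deposited log2 ratio (horizontal axis) for the CRF1 region (left) and the SCH9 region (right), 1 point per array coloured by group. At CRF1 all 5 arrays with a median above 1.11 lie below 0 on the vertical axis, and at SCH9 the same arrays lie on both sides of it.

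SFP1, the gene of the zinc-finger activator, has a probe next to it and another farther off in the same gap, so the pair share a target. The abutting region had log2 ratios of -1.05, 0.51 and -0.13 on Ifh1 rapamycin arrays and 0.09, 0.67, 0.57 and 0.70 on Ifh1 untreated arrays. Fhl1 rapamycin arrays gave 0.55, 0.64, -0.28, -0.43 and 0.02, and Fhl1 untreated arrays 0.39, 0.14 and 0.36. All 7 untreated arrays of either factor read above 0, and the Fhl1 arrays with rapamycin fell on both sides. The Ifh1 rapamycin arrays did so as turned, but their sides are not settled. How many of all probes read above 0 on all 7 untreated arrays was not counted. The Fhl1 difference with rapamycin was -0.20 (95% interval -0.97 to 0.57, limma). The Ifh1 untreated mean of 0.51 ± 0.28 (95% interval -0.02 to 1.04) had the lowest unadjusted p of any member in that group (0.0593, adjusted 0.693, limma), followed in size by 0.30 ± 0.14 for Fhl1 untreated (-0.31 to 0.91).

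At the DUS3/SFP1 region, values were 0.50, -0.23 and 0.56 on Ifh1 rapamycin arrays and 0.22, -0.22, 0.52 and -0.37 on Ifh1 untreated arrays. They were 0.28, 0.66, 0.64, -0.04 and 0.35 on Fhl1 rapamycin arrays and 0.25, -0.16 and 0.40 on Fhl1 untreated arrays. Its highest group mean was 0.38 ± 0.29 for Fhl1 rapamycin (95% interval -0.03 to 0.79, unadjusted p = 0.0686, adjusted 0.751, limma). As turned, the 2 SFP1 probes had their highest means in different groups, Ifh1 untreated for the abutting region and Fhl1 rapamycin for the farther one, and neither mean passed.

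RAP1 encodes the factor that binds RP promoters directly. Its own region read -0.40, -0.22 and -0.12 on Ifh1 rapamycin arrays and -0.11, -0.53, -0.25 and 0.00 on Ifh1 untreated arrays. On Fhl1 rapamycin arrays it read -0.20, -0.38, -0.30, 0.37 and -0.59, and on Fhl1 untreated arrays 0.46, 0.92 and -0.56. On 3 of 4 Ifh1 untreated and 4 of 5 Fhl1 rapamycin arrays RAP1 lay on the side away from the RP promoters, and on 2 of 3 Fhl1 untreated arrays on their side. As deposited, 2 of the 3 Ifh1 rapamycin arrays read above 0. Without Fhl1 untreated replicate 3, the mean of that group moved to 0.69 (unadjusted p = 0.0297, adjusted 0.717, limma), against 0.27 (95% interval -0.29 to 0.84) with it.

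HMO1 encodes the high-mobility-group protein of the RP promoters. The ARG82/HMO1 region read 0.37, -0.09 and 0.30 on Ifh1 rapamycin arrays and 0.51, 0.60, -0.18 and 0.86 on Ifh1 untreated arrays. It read 0.29, 0.34, -0.13, 0.88 and -0.28 on Fhl1 rapamycin arrays and 0.58, 0.25 and -0.57 on Fhl1 untreated arrays. Each group has at least 1 array below 0, for Ifh1 rapamycin as turned, since the sides of those arrays are not settled. The highest mean was 0.45 ± 0.44 for Ifh1 untreated (95% interval -0.07 to 0.96, unadjusted p = 0.087, adjusted 0.722, limma).

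ESA1, the acetyltransferase gene, shares a region with PUS7 that read -0.41, -0.20 and -0.13 on Ifh1 rapamycin arrays and 0.40, 0.40, -0.30 and -0.24 on Ifh1 untreated arrays. Fhl1 rapamycin arrays gave 0.47, 0.00, -0.64, -0.31 and -0.64, and Fhl1 untreated arrays 0.46, -0.06 and -0.15. Means stayed between -0.25 and 0.08 in the 4 groups, Ifh1 rapamycin as turned, with every 95% interval spanning 0.

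SCH9, the gene of the TOR complex 1 substrate kinase, had the highest mean among the members on the untreated arrays of both factors. Its region read 2.12, -0.89 and 0.09 on Ifh1 rapamycin arrays and 0.16, 1.81, 0.18 and 0.03 on Ifh1 untreated arrays. It read -0.20, -0.00, 0.87, -0.33 and 0.30 on Fhl1 rapamycin arrays and 1.02, 0.88 and 0.25 on Fhl1 untreated arrays. All 7 untreated arrays were above 0, but the Ifh1 untreated mean of 0.54 ± 0.85 (95% interval -0.27 to 1.36) rests on replicate 2, the only one of that group above 0.18. On Fhl1 untreated arrays SCH9 averaged 0.71 ± 0.41 (-0.23 to 1.66, unadjusted p = 0.127, adjusted 0.999, limma), which 90 of the 131 RP promoters exceeded. Its within-group SD of 0.86, pooled over all 4 groups, was higher than that of 84.4% of regions named by a reading frame. That rank includes the Ifh1 rapamycin arrays as turned, where the SD was 1.54. It was 0.85 on Ifh1 untreated, 0.48 on Fhl1 rapamycin and 0.41 on Fhl1 untreated arrays.

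TOR1 and TOR2 encode the kinases that rapamycin acts through. At ARP3/TOR1 the values were -0.20, -0.01 and -0.48 on Ifh1 rapamycin arrays and 0.57, -0.53, -0.40 and -0.39 on Ifh1 untreated arrays. They were 0.47, 0.12, -0.36, 0.05 and -0.42 on Fhl1 rapamycin arrays and 0.31, -0.43 and -0.22 on Fhl1 untreated arrays. The 4 group means lay between -0.23 and -0.03 with Ifh1 rapamycin as turned, and 1 Ifh1 untreated array was set apart above the others.

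At TOR2 the values were -0.99, -0.61 and -0.15 on Ifh1 rapamycin arrays and -0.68, -0.42, -0.40 and 0.76 on Ifh1 untreated arrays. Fhl1 rapamycin arrays gave -0.26, -1.10, -0.67, -0.26 and 0.66, and Fhl1 untreated arrays -0.43, 0.32 and 0.45. As turned, most arrays of the first 3 groups read below 0, with 1 Ifh1 untreated array and 1 Fhl1 rapamycin array above it. The lowest mean of any member was TOR2 on Ifh1 rapamycin arrays, -0.58 ± 0.42 (95% interval -1.29 to 0.12, adjusted p = 0.934, limma), whose sign depends on the unsettled sides of those arrays.

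The order of the members differed between groups. On Ifh1 untreated arrays SCH9 (0.54), SFP1 (0.51) and ARG82/HMO1 (0.45) led and CRF1 (-0.45) was last. On Fhl1 rapamycin arrays DUS3/SFP1 (0.38) and ARG82/HMO1 (0.22) led and TOR2 (-0.33) was last, and on Fhl1 untreated arrays SCH9 (0.71), SFP1 (0.30) and RAP1 (0.27) led and CRF1 (-0.14) was last. The 95% intervals of all 11 members overlap in every group. Among neighbours in these 3 orders, only SCH9 over SFP1 on Fhl1 untreated arrays differed by more than the SD of both regions (0.41 and 0.14).

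Some RP promoters lie close to regulator genes, and they show what the same arrays read there; they were chosen for their position after the values were known. RPL11A/PRE2, on the other side of PRE2 and FHL1 from the FHL1 region, averaged 1.03 on Ifh1 untreated, 1.39 on Fhl1 rapamycin (adjusted p = 0.0111, limma) and 1.18 on Fhl1 untreated arrays. RPS4B/MNL1, 1 gene away from the SCH9 region, averaged 1.21, 1.89 (adjusted p = 0.0046, limma) and 1.73 in the same order, against 0.54, 0.13 and 0.71 for SCH9. The RPL31B promoter, a few genes from SFP1, averaged 1.67 (adjusted p = 0.0181, limma), 1.54 (adjusted p = 0.0032) and 1.50 (adjusted p = 0.0414), against 0.51, 0.10 and 0.30 for the region abutting SFP1. On Ifh1 untreated, Fhl1 rapamycin and Fhl1 untreated arrays, each of these RP promoters thus averaged above its regulator neighbour. On Ifh1 rapamycin arrays as turned, RPL11A/PRE2 averaged 0.36 (-0.38 to 0.38 over the sign patterns) and RPL31B 0.90 (-0.90 to 0.90). RPS4B/MNL1 averaged 0.18 there (-1.07 to 1.07), below the 0.44 of SCH9. The RPL11A and RPL31B promoters are also among the large-subunit promoters by which the arrays were turned.

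**Figure D4:**
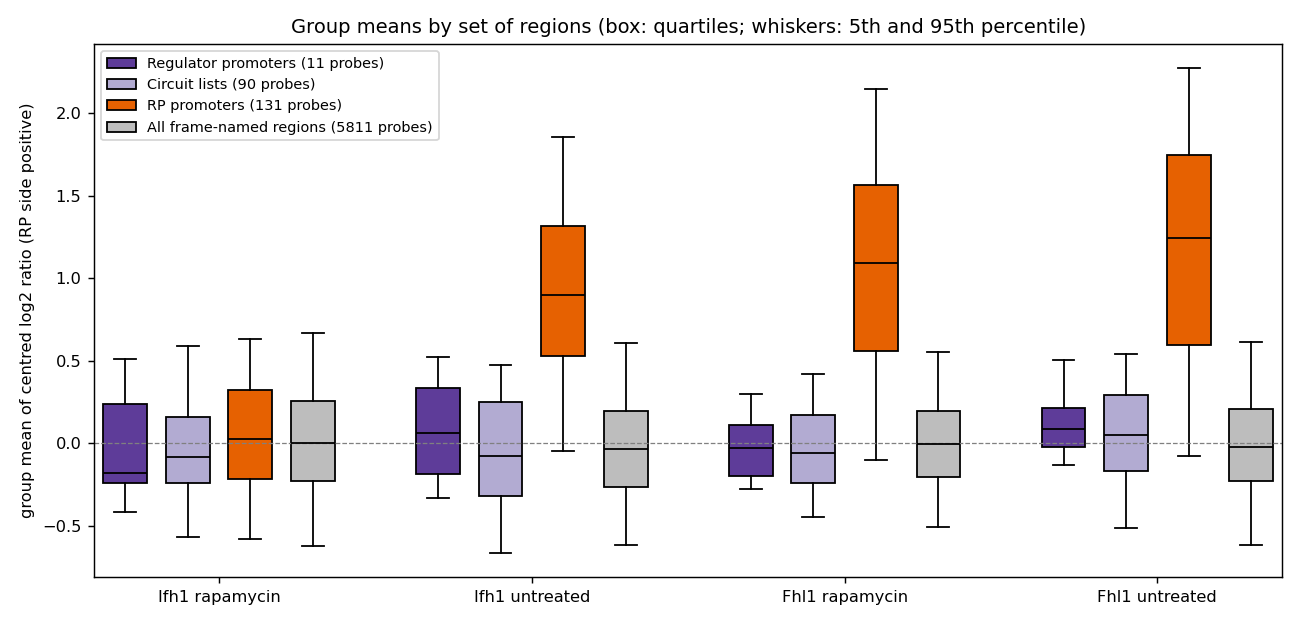
Distribution of group mean log2 ratios (RP side positive) for the 11 regulator regions, 90 further regions of the TOR and promoter circuit, the 131 RP promoters and all 5811 regions named by a reading frame. Boxes give the quartiles with the median and whiskers the 5th and 95th percentiles. The RP box stands at medians of 0.90, 1.09 and 1.24 on Ifh1 untreated, Fhl1 rapamycin and Fhl1 untreated arrays and at 0.03 on Ifh1 rapamycin arrays, and the regulator median lies at -0.18, 0.06, -0.03 and 0.09 from Ifh1 rapamycin to Fhl1 untreated.

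Whether rapamycin changed Ifh1 at these regions was asked next. In the difference of Ifh1 rapamycin minus untreated arrays 0 of 11 members were called, against 0.0147% of all probes, and 0 of 11 had an unadjusted p under 0.05, against 6.04% (limma). The member differences had a median of -0.10, against 0.01 over all probes and -0.84 over the RP promoters, and 9 of 11 were below 0. Over the sign patterns the member median ran from -0.17 to 0.06 and the count below 0 from 4 to 9, while the RP median stayed between -1.02 and -0.82. The arrays of rapamycin and untreated Ifh1 overlapped at 10 of 11 members and did not at FHL1 (8.26% of all probes did not overlap as turned), with a difference of -0.40 (95% interval -1.19 to 0.38, adjusted p = 0.857, limma). Under the 8 sign patterns of the rapamycin arrays that difference ran from -0.40 to -0.05, and the arrays were apart under 2 of them. The arrays of CRF1, SFP1, RAP1 and SCH9 were apart under 1 of the 8 patterns each.

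The widest change towards lower values with rapamycin was at SFP1, -0.73 (95% interval -1.54 to 0.08, unadjusted p = 0.0727, adjusted 0.837, limma), and it ran from -1.07 to 0.06 over the sign patterns. Its lowest p under any pattern was 0.0064 (adjusted 0.596, limma). After FHL1 came TOR2 at -0.40 (-1.33 to 0.53), a difference that ran from -0.40 to 0.77, and CRF1 moved the other way at 1.02 (-1.13 to 3.17), with a range from -0.98 to 1.87. SCH9 had -0.10 (-1.35 to 1.14) and a range from -1.58 to 0.49, with a lowest p of 0.0061 (adjusted 0.427, limma). Only FHL1 and ARG82/HMO1 (-0.25, range -0.70 to -0.19) kept 1 sign under all 8 patterns, and neither was called under any of them.

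For Fhl1 the side of the arrays is set on both arms. Rapamycin minus untreated gave 0 of 11 members called, against 0% of all probes, 0 of 11 at an unadjusted p under 0.05, against 3.57%, and 0 of 11 without overlap of the arrays, against 2.65% (limma). The differences had a median of -0.20, against 0.01 over all probes and -0.11 over the RP promoters. The widest were SCH9 at -0.59 (95% interval -1.78 to 0.60), RAP1 at -0.49 (-1.21 to 0.23, unadjusted p = 0.165, adjusted 0.999, limma) and TOR2 at -0.44 (-1.33 to 0.45). Without Fhl1 untreated replicate 3 the RAP1 difference was -0.91 (unadjusted p = 0.017, adjusted 0.994, limma). FHL1 itself differed by 0.04 (-0.71 to 0.79) and IFH1/UCC1 by -0.24 (-1.04 to 0.57).

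**Figure D5:**
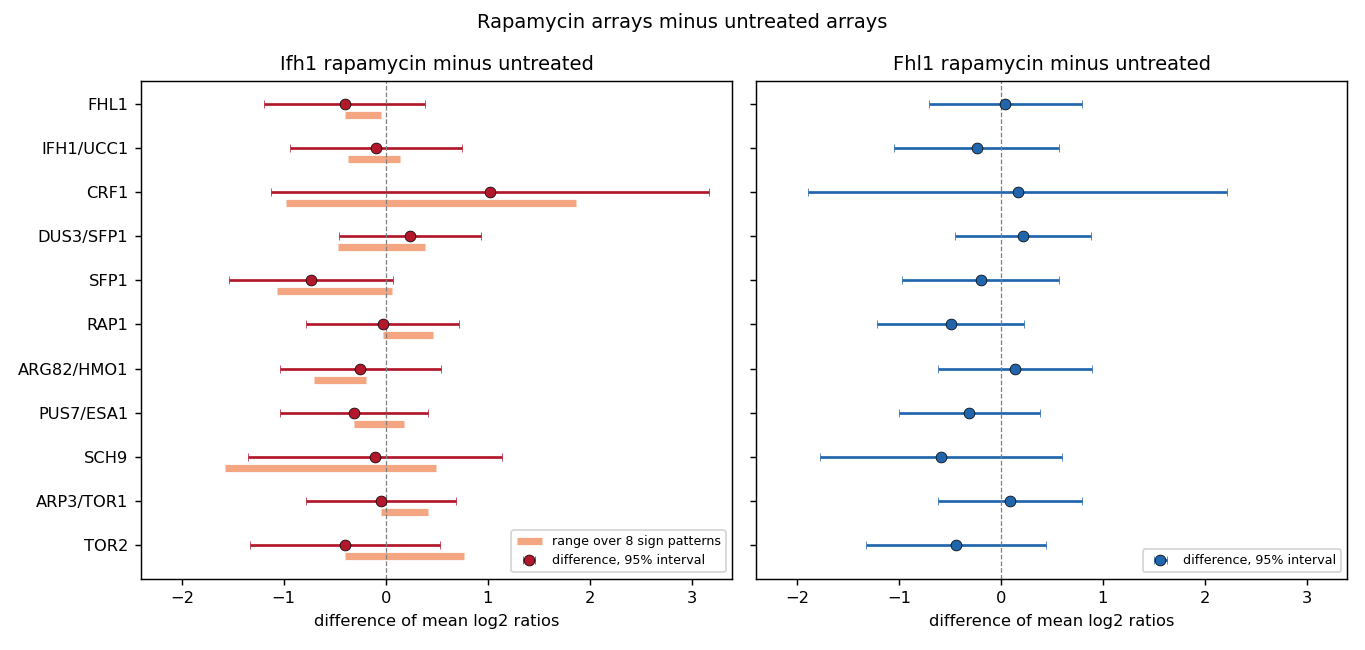
Rapamycin minus untreated difference in log2 ratio at the 11 regulator regions with 95% intervals from limma, for Ifh1 (left) and Fhl1 (right), and for Ifh1 the range over the 8 sign patterns of its rapamycin arrays. All intervals span 0, and the Ifh1 ranges cross 0 at every region except FHL1 and ARG82/HMO1.

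Arrays were also cut into 3 clusters by the correlation of their values outside RP promoters (sign as deposited). The number of clusters was set, not found. The labels do not give this split, which is treated here like a batch. Whether the unknown dye directions enter it was not tested. The Fhl1 difference at RAP1 was -1.03 within the first cluster and 0.45 within the third. SCH9 kept its sign, at -0.51 and -0.27, and so did TOR2, at -0.83 and -0.25. The sign also held at IFH1/UCC1 (-0.72 and -0.02), the region abutting SFP1 (-0.09 and -0.56) and PUS7/ESA1 (-0.52 and -0.325), but not at the remaining members. The differences within the third cluster rest on a single Fhl1 untreated array, replicate 3. The Ifh1 differences could be taken within the first cluster only, where they were -0.43 at FHL1, -0.92 at SFP1 and -0.78 at TOR2.

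The difference between the factors was tested in each state. In rapamycin, with the Ifh1 arrays as turned, Ifh1 minus Fhl1 gave 0 of 11 called, against 0.0735% of all probes, 0 of 11 at an unadjusted p under 0.05, against 5.51%, and 0 of 11 without overlap, against 4.34% (limma). In untreated cells, Ifh1 minus Fhl1 gave 0 of 11, against 0%, with 0 of 11 at an unadjusted p under 0.05, against 4.13%, and 0 of 11 without overlap, against 5.1%. Untreated differences ran from -0.49 at RAP1 (95% interval -1.24 to 0.26) to 0.36 at ARG82/HMO1 (-0.43 to 1.15), and the RAP1 value was -0.91 without Fhl1 untreated replicate 3 (unadjusted p = 0.0206, adjusted 0.959, limma). Whether rapamycin acted differently on Ifh1 than on Fhl1 was tested as an interaction, again with 0 of 11 called, against 0%, and 0 of 11 at an unadjusted p under 0.05, against 4.37%. As turned, the interaction had a median of 0.02 over the members and -0.72 over the RP promoters.

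The size of change that these arrays bound at the regulators is given by the intervals. For a rapamycin difference, the distance from the estimate to either bound of the 95% interval had a median of 0.79 over members for Ifh1 and 0.76 for Fhl1, and at CRF1 it reached 2.15 and 2.06. An estimate smaller than that distance leaves 0 inside the interval. A call after adjustment over all probes needs a larger difference. For Ifh1, 1 of all 6803 probes was called in that difference. The median Ifh1 difference of the RP promoters, -0.84, lay below the lower bound at DUS3/SFP1 (-0.46), RAP1 (-0.78) and ARP3/TOR1 (-0.78), with the sides of the rapamycin arrays as taken here. At the other 8 regions the interval includes a fall of that size.

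Pooling the 12 arrays outside Ifh1 rapamycin, an alternative chosen after seeing the data, narrowed the intervals. It called 105 probes, 90 of them RP promoters, and 0 of 11 members, while 2 members had an unadjusted p under 0.05, where 8.0% of all probes did (limma). SCH9 averaged 0.41 (95% interval 0.05 to 0.78, unadjusted p = 0.0284, adjusted 0.537), with 9 of 12 arrays above 0. The region abutting SFP1 averaged 0.29 (0.01 to 0.56, unadjusted p = 0.0413, adjusted 0.608), with 10 of 12 arrays above 0, and ARG82/HMO1 averaged 0.26 (-0.04 to 0.57) with 8 of 12. Over the same 12 arrays, the RP promoters had a median of 1.00. CRF1 read below the array's RP median on 10 of 12 arrays, FHL1, ARG82/HMO1, SCH9 and TOR2 on 11, and the other 6 regions on all 12.

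The regions most like SCH9, the member with the highest mean over these 12 arrays, were PFS1 (r = 0.89), a sporulation gene, YER076C (0.80), PEX22 (0.80), a peroxisomal gene, HXT13 (0.80), of the hexose transporter family, and OTU1 (0.78), a deubiquitinase gene. None is an RP promoter, and their own means over the 12 arrays ran from -0.32 to 0.21. These correlations across 12 arrays were picked as the highest among all named regions, so they are a description only.

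The wider circuit was read from 6 lists of 88 genes, chosen with earlier results of these data known, of which 84 had a probe, giving 90 regions. None was called in any group or difference. At an unadjusted p under 0.05 lay 4 (4.44%) on Ifh1 rapamycin as turned, 9 (10%) on Ifh1 untreated, 3 (3.33%) on Fhl1 rapamycin and 2 (2.22%) on Fhl1 untreated arrays, next to the shares of all probes given above. Examples are regions with a low unadjusted p in 1 group, and their Ifh1 rapamycin means carry the range over the sign patterns. EAF1, GCR2, RRD2 and TIP41 had no probe facing their 5′ ends.

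Of TOR complex subunits and nutrient sensors (18 regions), the list median was -0.12 on Ifh1 rapamycin (-0.23 to 0.23 over the sign patterns), 0.02 on Ifh1 untreated, -0.09 on Fhl1 rapamycin and -0.11 on Fhl1 untreated arrays. KOG1/IKI1, whose KOG1 encodes the Raptor subunit of TOR complex 1, averaged -0.50 ± 0.27 on Ifh1 rapamycin (-0.50 to 0.50 over the sign patterns, unadjusted p = 0.0354, adjusted 0.906, limma) and -0.35 ± 0.16 on Ifh1 untreated arrays. FPR1, the gene of the protein through which rapamycin binds TOR, averaged -0.82 ± 0.76 on Fhl1 untreated arrays (adjusted p = 0.999, limma), and CAN1/NPR2 averaged 0.60 ± 0.27 on Ifh1 untreated arrays (unadjusted p = 0.0456, adjusted 0.669, limma).

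In the phosphatase branch (14 regions), which carries part of the TOR signal, medians lay between -0.08 and 0.06 outside Ifh1 rapamycin, and within -0.09 and 0.09 there over the sign patterns. RTS1, a regulatory subunit of phosphatase 2A, averaged 1.11 ± 1.20 on Ifh1 untreated arrays with 3 of 4 above 0 (unadjusted p = 0.0109, adjusted 0.446, limma). STP4/SIT4, whose SIT4 encodes a TOR-linked phosphatase, averaged 1.04 ± 1.12 at iYDL048C-1 on Ifh1 rapamycin arrays (-1.04 to 1.04 over the sign patterns, 1 of 3 above 0 as deposited, unadjusted p = 0.0201, adjusted 0.842, limma), and its other region, iYDL048C-0, averaged 0.04 ± 1.32 there.

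Kinases of the protein kinase A (PKA) branch and related kinases (15 regions) had medians between -0.19 and 0.12 outside Ifh1 rapamycin, and within -0.18 and 0.18 there. BCY1/ULP2, whose BCY1 encodes the inhibitory subunit of PKA, averaged -0.89 ± 0.88 on Ifh1 untreated arrays (unadjusted p = 0.043, adjusted 0.666, limma). RIM15/HAC1, whose RIM15 encodes a kinase of starved cells, averaged 0.47 ± 0.46 there with 4 of 4 above 0 (unadjusted p = 0.0642, limma).

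Casein kinase 2 and the CURI complex, which joins Ifh1 to the rRNA processing proteins Utp22 and Rrp7, gave 7 regions with medians between -0.09 and 0.09 outside Ifh1 rapamycin, and within -0.42 and 0.42 there. Of 2 regions that face UTP22, iYGR089W-0 averaged -0.67 ± 0.69 on Fhl1 rapamycin arrays with 1 of 5 above 0 (unadjusted p = 0.0326, adjusted 0.629, limma). The other, iYGR089W-1, averaged -0.55 ± 0.72 there with 2 of 5 above 0 (unadjusted p = 0.138, adjusted 0.813, limma). CKA1, a catalytic subunit of casein kinase 2, averaged 0.51 ± 1.68 on Ifh1 rapamycin (-1.13 to 1.13 over the sign patterns), -0.09 ± 0.65 on Ifh1 untreated, 0.69 ± 0.97 on Fhl1 rapamycin and 0.58 ± 0.74 on Fhl1 untreated arrays (unadjusted p from 0.106 to 0.851, limma).

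Other promoter factors (24 regions) had medians between -0.11 and 0.09 outside Ifh1 rapamycin and within -0.11 and 0.11 there, and the chromatin complexes (12 regions) between -0.11 and 0.11 and within -0.09 and 0.09. STB3, the gene of a factor that binds ribosomal RNA processing element motifs, has 2 regions. The region iYDR169C-0 averaged -0.67 ± 0.83 on Ifh1 untreated, 0.05 ± 0.22 on Fhl1 rapamycin and -0.73 ± 0.45 on Fhl1 untreated arrays. The other, iYDR169C-1, averaged 0.00 ± 0.77, -0.91 ± 1.09 and -0.23 ± 0.37 in these groups. Of these 6 means, the unadjusted p was under 0.05 for -0.67, -0.73 and -0.91, with adjusted p of 0.563, 0.839 and 0.459 (limma). REB1, a general regulatory factor, averaged 0.55 ± 0.33 on Fhl1 rapamycin arrays with 5 of 5 above 0 (unadjusted p = 0.0199, adjusted 0.540, limma). GCR1, an activator of glycolytic and RP genes, averaged -0.71 ± 0.39 at iYPL076W-0 on Ifh1 untreated arrays with 0 of 4 above 0 (unadjusted p = 0.0146, adjusted 0.50, limma), and 0.45 ± 0.09 at its other region, iYPL076W-1, with 4 of 4 above 0 (unadjusted p = 0.0305, adjusted 0.624). EPL1/BUD27, whose EPL1 encodes a NuA4 subunit alongside Esa1, averaged 0.75 ± 0.72 on Ifh1 untreated arrays (adjusted p = 0.614, limma), and SFB3/TRA1, whose TRA1 encodes another, averaged -0.94 ± 0.71 on Ifh1 rapamycin arrays (-0.94 to 0.94 over the sign patterns, adjusted p = 0.842, limma).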

How the data were processed

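Per the labels' protocols, DNA recovered with an antibody against myc was amplified by ligation-mediated PCR, dye-coupled with Cy3 or Cy5 and scanned with GenePix Pro 4.0. The authors deposited log2 ratios for 6803 probes on 15 arrays. Base 2 was inferred: taken as base 2, 100% of the values are ratios with 3 decimals, against 1.12% for base e and 7.30% for base 10. The sources used here name no normalisation, spot filter or genome build. Missing values (1 probe of Ifh1 untreated replicate 1 and 8 of replicate 4) touched no member. The number of arrays limits the precision, and arrays sharing an untagged preparation would not be independent.

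Sample titles gave the groups and replicate numbers. Each array was centred on its median and turned so that large-subunit RP promoters are positive. The limma model (version 3.58.1, in R 4.3.3, lmFit with eBayes) held 4 group means over the 15 arrays, and p-values were adjusted over all probes by Benjamini-Hochberg. The fit was tested on simulated data. Permutation tests drew 100000 permutations (Python 3.11.15, numpy 2.4.6, pandas 2.3.3, scipy 1.17.1).

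Gene names and neighbours came from NCBI's RefSeq table of assembly R64, which holds 5293 of the 5574 reading frames that name probes. A region was placed on the higher-coordinate side of its frame, because 88 of 101 genes with a gap over 100 bases there, and at most 50 on the other side, had a probe. The reverse held for 4 of 102 genes. The frame naming the region that abuts SFP1 is not in the table and was placed by its systematic number.

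The members and lists were chosen with earlier results of these data known. The text names all probes facing a member, both tagged 3′ ends, the 5 regions most correlated with the highest member and, as examples, some of the 2 regions of lowest p per list and group. Replicate numbers did not pair arrays, since deviations of same-numbered arrays correlated at r between -0.23 and 0.07. Alternatives changed the turning, centring, scaling, dye term, probes, groups fitted, eBayes, blocks and sign patterns, or left out 1 array.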

Additional observations from a re-analysis of the deposited data

Results flagged for a closer look

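Arrays that stood far from the rest of their group were looked for among the members in the groups of 4 or 5 arrays (22 tests, of which chance alone marks about 1 in 20). There were 3 such cases, all on Ifh1 untreated arrays. At SCH9, replicate 2 read 1.81 and the other 3 arrays 0.03 to 0.18, a gap of 0.916 of the whole range. At ARP3/TOR1, replicate 1 read 0.57 and the other 3 -0.53 to -0.39, a gap of 0.873 of the range. At IFH1/UCC1, replicate 4 read -0.72 and the other 3 0.32 to 0.51, a gap of 0.840 of the range.

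Of 66 comparisons of groups at single members, 1 had every array of the groups on opposite sides of 0, as did 1.33% of such comparisons over all probes (2.22% for Ifh1 rapamycin minus untreated). The FHL1 region was below 0 on 3 of 3 Ifh1 rapamycin arrays and above 0 on 4 of 4 Ifh1 untreated arrays, a difference of -0.404 (95% interval -1.19 to 0.38, limma adjusted p = 0.857). The sides of the rapamycin arrays are not settled, and the arrays lay on opposite sides under 1 of the 8 sign patterns. Over the patterns the difference lay between that value and -0.05.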

How the results depend on the processing

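No member was called in any of the 9 comparisons under any of 34 alternatives each (33 for the interaction), and the lowest adjusted p among all of these was 0.427 (SCH9, Ifh1 rapamycin minus untreated, under 1 sign pattern). Of 3355 member values, 3206 stayed within 1 SD of the reported value and 149 moved further, 90 of them under the sign patterns of the Ifh1 rapamycin arrays, 28 with arrays as deposited and 18 without centring. No value changed its call. Many of these values could not move, so the total is no measure of stability. The mean of a group keeps its value when arrays of other groups are turned or left out. Some alternatives also repeat a fit: 1 sign pattern is the main turning, and turning by small-subunit RP promoters equals another pattern.

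Counts over all probes were less stable: with arrays as deposited or without centring, 0 probes were called in each single group. The main counts were 24 (6 to 32 without 1 array) for Ifh1 untreated, 66 (38 to 73) for Fhl1 rapamycin, and 45 (11 to 49) for Fhl1 untreated; fitting only the groups compared gave 0, 52 and 0. With a replicate block they were 1, 68 and 9, and with a block for the array clusters 5, 64 and 38. For Ifh1 minus Fhl1 in rapamycin, 5 probes were called, and 0 to 12 under the alternatives.

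With the replicate block, 0 of 11 members were called in each comparison, and the Fhl1 difference with rapamycin at TOR2 was -0.90 (unadjusted p = 0.0321, adjusted 0.980, limma).

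The groups held 3 to 5 arrays, and within-group SDs at the members ran from 0.35 to 1.59. For a rapamycin difference, the median distance to either interval bound (limma) over members was 0.76 for Fhl1 and 0.79 for Ifh1. An estimate smaller than that was not told apart from no change at a typical member. These distances are not detection limits, since a call after adjustment over all probes needs a larger difference.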
